A study of Bos taurus with 27 samples.

Results

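Transcripts of the colonic ion transport machinery were followed in the colon of neonatal dairy calves. Of 8 genes named for this role, 6 (SLC26A3, SLC26A2, SLC12A2, ATP1B1, CFTR and CA2) were matched to a single Ensembl identifier among the 24616 genes of the count table through the gene names listed by the study. SLC4A4 and KCNQ1 had no identifier in those lists and were not analysed here. The genes were named with earlier results of these data known, and the lists that gave the identifiers hold mostly genes with many counts. The filter on low counts left 13943 genes for testing, these 6 among them.

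The 27 calves were male Holsteins, and a segment of their colon, collected at an age of 51 h, was sequenced as RNA and counted per gene. All received pooled, pasteurized colostrum by tube, and from 12 h after that meal milk replacer every 6 h. They differed in when the first colostrum meal came after birth: at 0 h in TRT0, at 6 h in TRT6 and at 12 h in TRT12. Each treatment had 9 calves. Milk replacer thus also began later where colostrum came later, and the effects of both cannot be told apart here. Within each treatment 4 calves were born to primiparous heifers (H) and 5 to multiparous cows (C), which gave the groups TRT0_H, TRT0_C, TRT6_H, TRT6_C, TRT12_H and TRT12_C. Each library came from 1 calf, treatment came from the sample labels, and dam parity from the sample sheet of the study. Calves are named by treatment and a replicate number that follows the order of deposit and has no other meaning.

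In the colon, an apical exchanger takes up chloride in return for bicarbonate while sodium enters beside it, and the sodium pump of the basolateral membrane drives the uptake of both salts and water. Secretion runs the other way: chloride enters crypt cells from the blood side by cotransport with sodium and potassium and leaves through apical anion channels. Carbonic anhydrase supplies the bicarbonate and protons that the exchangers trade, and the balance of uptake and secretion decides how wet the faeces are, which in newborn calves bears on diarrhoea.

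The libraries held between 1163791 and 4202593 counts (median 2215402), so that 3 counts came to 0.714 to 2.58 CPM (counts divided by the total and scaled to 1000000). The 6 genes had 54 to 823 counts per calf, well above that level in all 27 calves. Of the markers of colon, AQP8 (122 CPM) and CA1 (76.0 CPM) were present on average, while the small intestinal genes SLC10A2 (3.12 CPM) and APOA4 (4.79 CPM) were low. CA1 ranged from 12.5 to 248 CPM between calves. Only 3 of 7 listed colon markers and 2 of 10 listed small intestinal markers had an identifier. The tissue was the whole wall: summed over 10 genes each, smooth muscle markers reached 11451 CPM and epithelial markers 4518 CPM. In such bulk samples, fewer epithelial cells and less RNA per epithelial cell cannot be told apart. The libraries ran in 3 lanes with 11, 11 and 5 calves, and the groups were spread unevenly over them: lane 1 held no TRT0_C calf, and lane 3 held no TRT0_H, TRT6_H or TRT12_C calf. By the run names, lane 3 belonged to a different sequencing run from the other lanes.

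All 6 genes were expressed in every calf, and they differed in how much they varied. ATP1B1, a beta subunit of the sodium pump, had a mean of 200.2 ± 32.3 CPM (SD, n = 27) and a coefficient of variation of 16.1%, with the highest calf at 1.78 times the lowest. CFTR, the apical anion channel of secretion, averaged 127 ± 23.0 CPM with a coefficient of 18.2%, and SLC12A2, the basolateral Na-K-Cl cotransporter, averaged 151 ± 30.4 CPM with 20.1%. SLC26A2, a sulphate transporter, averaged 142 ± 34.8 CPM with 24.5%, and SLC26A3, the apical chloride and bicarbonate exchanger, averaged 95.9 ± 25.8 CPM with 26.9%. CA2, a cytosolic carbonic anhydrase, averaged 75.1 ± 42.1 CPM with 56.1%, and its highest calf stood at 7.57 times its lowest. Counting error alone would give 5.11% to 8.26%. Over the 2655 tested genes with a mean between 50 and 250 CPM the median coefficient was 16.9%, so ATP1B1 lay a little below it and CA2 far above.

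**Figure D1:**
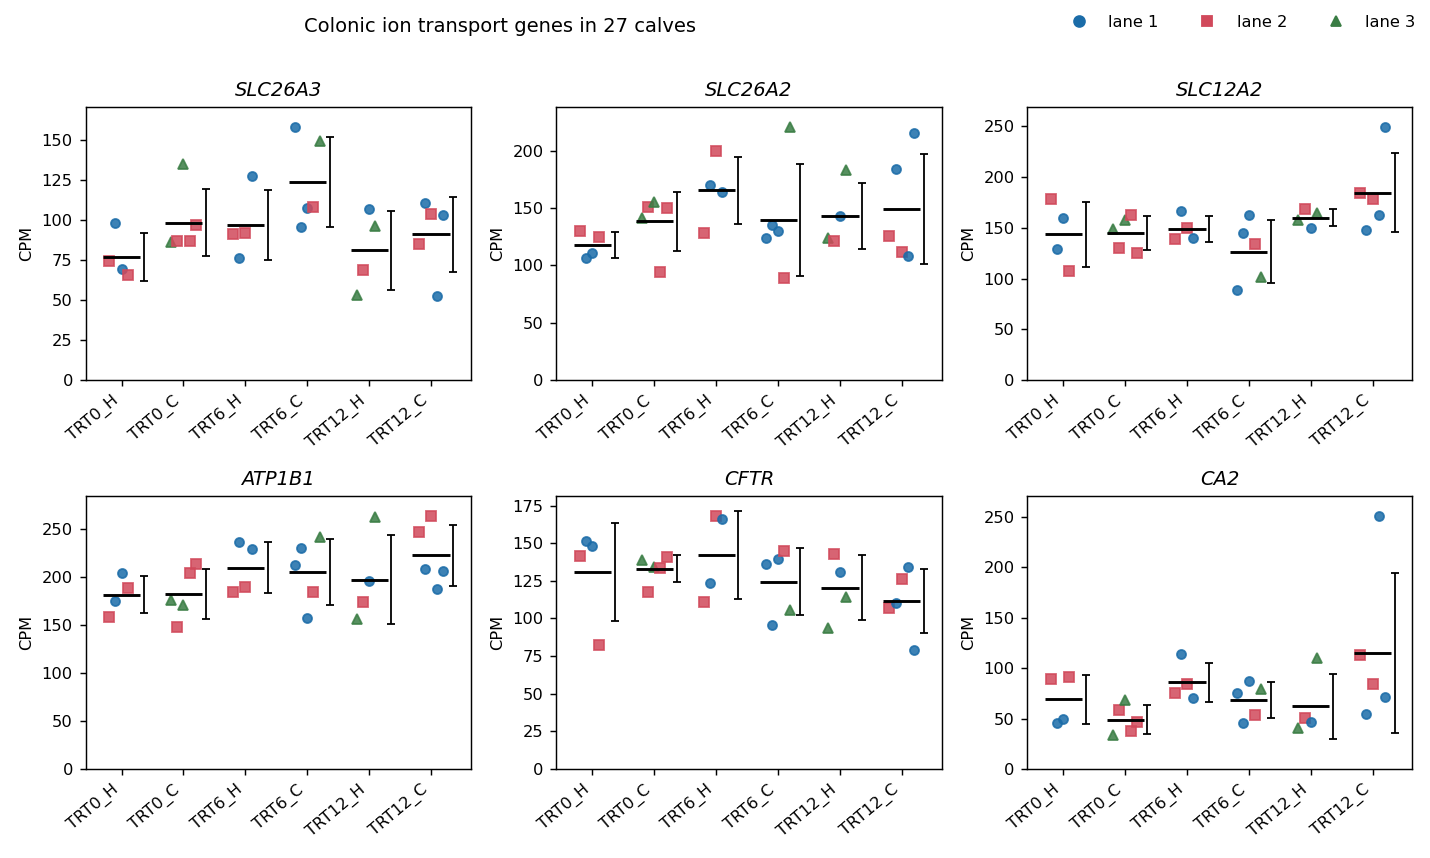
CPM (y axis, from 0) of the 6 ion transport genes in each calf, by group (x axis), with a black line at the group mean, a bar of 1 SD to its right, and colour and shape for the sequencing lane. The single CA2 value of 251 CPM in TRT12_C stands far above the other 26 calves.

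No ion transport gene passed the adjusted threshold in any comparison. With calls at a Benjamini-Hochberg adjusted p of 0.10 and a fold change of 1.2, the quasi-likelihood test of edgeR called 0 of the 6 in each of the 13 contrasts, where it called 0 of all 13943 genes (0.0%). It also called 0 of the 6 in the interaction of treatment and parity, where it called 1 other gene of all tested (0.00717%). At an unadjusted p under 0.05 in the same test, 3 of the 6 stood out in TRT12_C vs. TRT0_C, beside 9.86% of all genes, and 2 in TRT12_C vs. TRT6_C, beside 6.71%. There was 1 in TRT12_C vs. TRT12_H, beside 2.68% of all genes, 2 in TRT12 vs. TRT0, beside 9.37%, and 1 in TRT12 vs. TRT6, beside 3.14%. All of these were higher in the first group. In the other 8 contrasts 0 of the 6 had such a p. The share of all genes there was 3.35% in TRT6_H vs. TRT0_H, 3.56% in TRT12_H vs. TRT0_H, 1.8% in TRT12_H vs. TRT6_H, 1.95% in TRT6_C vs. TRT0_C, 2.52% in TRT0_C vs. TRT0_H and in C vs. H, 3.86% in TRT6_C vs. TRT6_H and 3.13% in TRT6 vs. TRT0. DESeq2 and edgeR's likelihood ratio test also called 0 of the 6 in every contrast they were run on, and edgeR's exact test called 1, CA2 in TRT12_C vs. TRT0_C. The CPM values of TRT12_C and TRT0_C overlapped for each of the 6 genes, while they did not for 2.19% of all genes.

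**Figure D2:**
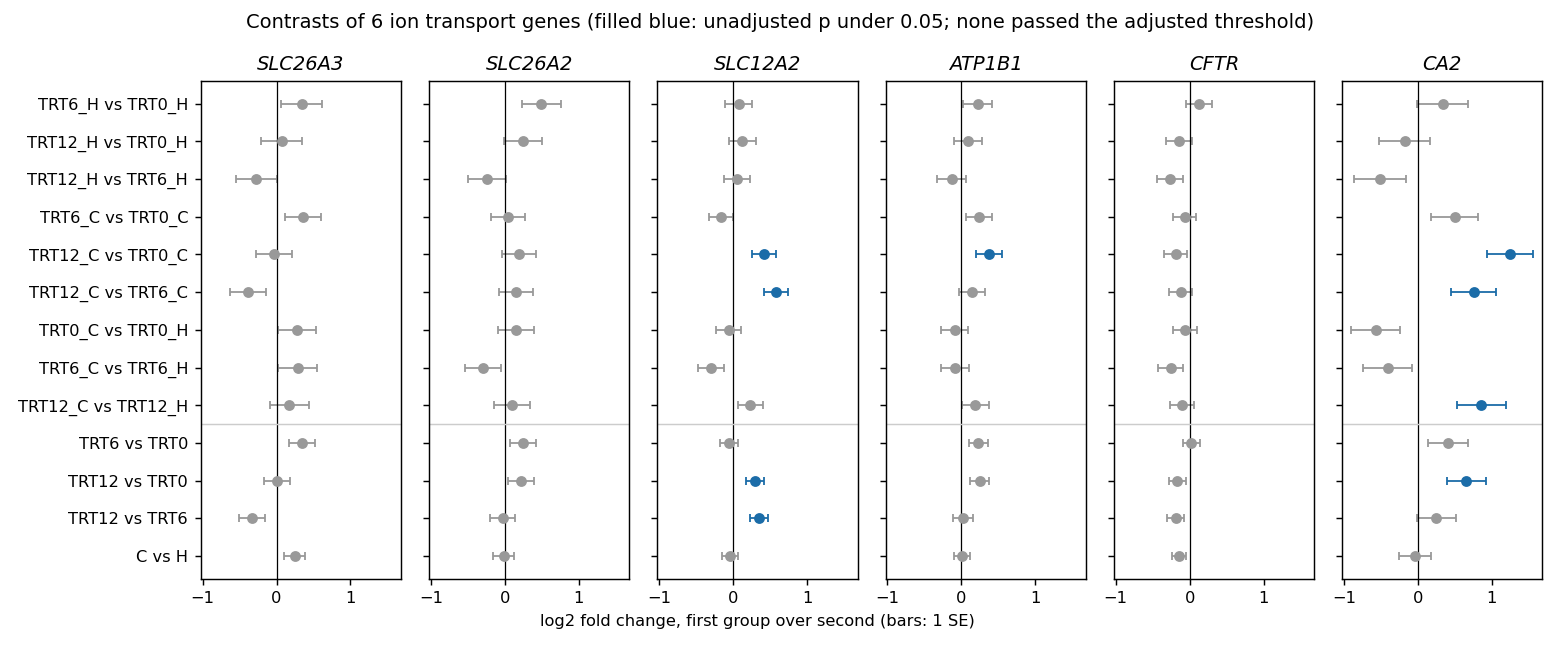
Log2 fold change (x axis, first group over second, bars of 1 SE) of the 6 genes in the 13 contrasts (y axis), from edgeR's quasi-likelihood fits, with blue for an unadjusted p under 0.05 and grey for the rest. Blue points fall in contrasts with TRT12 or TRT12_C as the first group, for CA2, SLC12A2 and ATP1B1, and no point passed the adjusted threshold.

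The apical exchanger SLC26A3, whose loss in humans causes congenital chloride diarrhoea, had its highest group mean in TRT6_C (124 ± 28.0 CPM, SD, n = 5) and its lowest in TRT0_H (77.0 ± 14.8 CPM, n = 4). The TRT6_C calves had 158, 95.9, 107, 108 and 149.5 CPM, and the TRT0_H calves had 74.4, 98.5, 69.4 and 65.7 CPM. A single TRT0_H calf at 98.5 CPM reached into the range of TRT6_C. Between these groups lay TRT0_C at 98.6 ± 21.0 CPM, TRT6_H at 97.1 ± 21.7, TRT12_C at 91.2 ± 23.4 and TRT12_H at 81.3 ± 24.6. Only the step from TRT6_C to TRT0_C, of 25.4 CPM, exceeded the pooled SD of the groups beside it (24.7 CPM), and the other neighbours did not differ beyond their spread.

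Over both parities SLC26A3 had a lowest, median and highest value of 76.7, 107 and 158 CPM in TRT6. The same values were 65.7, 86.9 and 135 CPM in TRT0 and 52.9, 96.2 and 110.6 CPM in TRT12. The TRT6 median was the highest, while the ranges overlapped broadly. The log2 fold change was 0.35 (SE 0.18) in TRT6 vs. TRT0, with a p of 0.0580 before and 0.99999 after adjustment in edgeR's quasi-likelihood test, and -0.34 (SE 0.18) in TRT12 vs. TRT6, with an adjusted p of 0.9998. The TRT6 calves are shared by both comparisons. In TRT12 vs. TRT0 the log2 fold change was 0.01 (SE 0.18).

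SLC26A2 carries sulphate into epithelial cells, where it is used for sulphated mucins and matrix. Its group means ran from 118 ± 11.2 CPM in TRT0_H to 166 ± 29.2 CPM in TRT6_H (SD, n = 4 each). The TRT0_H calves had 130.2, 107, 110.5 and 125 CPM, and the TRT6_H calves had 129, 169.98, 199.9 and 164 CPM. The lowest TRT6_H calf lay just under the highest TRT0_H calf, and the other 3 were above all 4. TRT6_H vs. TRT0_H had a log2 fold change of 0.49 (SE 0.26), with a p of 0.0678 before and 0.99998 after adjustment in edgeR's quasi-likelihood test. The remaining groups had means between 138 and 149 CPM, and no neighbours in the order of the 6 groups differed beyond their pooled SD. Both the lowest calf (89.3 CPM) and the highest (221 CPM) of all 27 belonged to TRT6_C.

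SLC12A2, which loads crypt cells with chloride for secretion, had its highest mean in TRT12_C (185 ± 38.9 CPM, SD, n = 5) and its lowest in TRT6_C (126 ± 30.8 CPM, n = 5). The TRT12_C calves had 185, 148, 179, 163 and 249 CPM. The TRT6_C calves had 88.4, 145, 163, 134 and 101 CPM, and the TRT0_C calves had 149, 130.2, 158, 162 and 125 CPM. Of the 5 TRT12_C calves 4 lay above every TRT0_C calf, and the lowest, at 148 CPM, fell within the TRT0_C and TRT6_C ranges. The lowest of those 4, at 162.6 CPM, was barely above the highest TRT0_C calf at 162.1 CPM. It also fell within the TRT6_C range, just below the highest calf there at 162.7 CPM.

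In TRT12_C vs. TRT6_C the log2 fold change of SLC12A2 was 0.58 (SE 0.16), with a p of 0.00124 before and 0.738 after adjustment in edgeR's quasi-likelihood test. In TRT12_C vs. TRT0_C it was 0.42 (SE 0.16), with a p of 0.0152 before and 0.446 after adjustment, and all alternatives gave adjusted p-values between 0.238 and 0.897. Genes with an unadjusted p under 0.05 that were higher in TRT12_C made up 3.26% of all tested genes against TRT6_C and 5.03% against TRT0_C. Without the calf at 249 CPM, TRT12 replicate 8, the value was 0.42 against TRT6_C and 0.26 against TRT0_C, so the second moved by more than 1.5 times. TRT12_C is shared by both comparisons.

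Among H calves the SLC12A2 means lay closer together, at 144 ± 31.7 CPM in TRT0_H, 149 ± 12.98 CPM in TRT6_H and 160.1 ± 8.23 CPM in TRT12_H (SD, n = 4 each). The TRT0_C mean was 145 ± 16.6 CPM. In the order of the 6 groups the step from TRT12_H to TRT6_H, of 11.3 CPM, slightly exceeded the pooled SD of both (10.9 CPM). The other neighbours did not differ beyond their spread. In edgeR's quasi-likelihood test, TRT12_H vs. TRT6_H had a log2 fold change of 0.05 (SE 0.18) and an unadjusted p of 0.773. TRT12_H vs. TRT0_H had a log2 fold change of 0.13 (SE 0.18), and the interaction of treatment and parity had a p of 0.111 before and 0.999 after adjustment in edgeR's quasi-likelihood test. Over both parities, TRT12 calves had a lowest, median and highest SLC12A2 value of 148, 165 and 249 CPM. The same values were 88.4, 139.6 and 167 CPM in TRT6 and 107, 149 and 178 CPM in TRT0, so the lowest TRT12 calf lay near the median of the other treatments. The log2 fold change was 0.35 (SE 0.13) in TRT12 vs. TRT6, with an unadjusted p of 0.00985 in edgeR's quasi-likelihood test. It was 0.29 (SE 0.13) in TRT12 vs. TRT0, with an unadjusted p of 0.0260 in the same test, and 0.19 without TRT12 replicate 8. The adjusted p-values were 0.9998 and 0.477. Genes higher at an unadjusted p under 0.05 made up 1.49% and 5.19% of all genes in these contrasts.

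ATP1B1 carries the sodium pump to the basolateral membrane and stabilises it there. The TRT12_C calves had 247, 209, 264, 188 and 206 CPM, and the TRT0_C calves had 176, 148, 170.4, 204 and 213 CPM. The TRT12_C mean was 223 ± 31.5 CPM and the TRT0_C mean 182 ± 26.4 CPM (SD, n = 5 each), with 2 TRT12_C calves above every TRT0_C calf and the other 3 inside their range. The log2 fold change was 0.37 (SE 0.18), with a p of 0.0426 before and 0.496 after adjustment in edgeR's quasi-likelihood test. Means of TRT0_H (182 CPM) and TRT0_C (182 CPM) were the lowest of the 6 groups, followed by TRT12_H (197 CPM), TRT6_C (205 CPM), TRT6_H (209.8 CPM) and TRT12_C, and no neighbours in that order differed beyond their pooled SD. Over both parities the log2 fold change was 0.23 (SE 0.13) in TRT6 vs. TRT0 and 0.25 (SE 0.13) in TRT12 vs. TRT0, which share the TRT0 calves.

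CFTR is the anion channel that cyclic AMP opens in secretory diarrhoea and that is faulty in cystic fibrosis. Its group means ran from 142 ± 29.3 CPM in TRT6_H (n = 4) to 111 ± 21.3 CPM in TRT12_C (SD, n = 5). The TRT12_C calves had 107, 110.3, 126, 134 and 79.2 CPM, and the TRT6_H calves had 111, 123, 168 and 166 CPM. These ranges overlapped, and no neighbours in the order of the 6 groups differed beyond their pooled SD. The log2 fold change of CFTR was -0.19 (SE 0.16) in TRT12_C vs. TRT0_C and -0.17 (SE 0.11) in TRT12 vs. TRT0, with adjusted p-values of 0.7099 and 0.670 in edgeR's quasi-likelihood test. Its unadjusted p was above 0.05 in all 13 contrasts, the lowest being 0.113 in TRT12 vs. TRT6. The calf with the lowest CFTR of all 27, TRT12 replicate 8 at 79.2 CPM, was the calf with the highest SLC12A2.

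CA2 hydrates carbon dioxide to bicarbonate and a proton inside the epithelial cell, and it showed the widest spread of the 6 genes. The TRT12_C calves had 113, 54.0, 84.5, 251 and 71.8 CPM. The TRT0_C calves had 33.2, 58.7, 68.2, 37.7 and 46.5 CPM, and the TRT6_C calves had 75.4, 45.8, 87.1, 53.5 and 79.1 CPM. Of the 5 TRT12_C calves 4 lay above every TRT0_C calf and 2 above every TRT6_C calf. Among H calves CA2 was 88.8, 45.8, 49.6 and 91.6 CPM in TRT0_H, 74.9, 114, 83.8 and 70.6 CPM in TRT6_H, and 41.1, 50.5, 46.2 and 110.4 CPM in TRT12_H. The H groups overlapped, and TRT12_H held 3 calves near the bottom of their range and 1 near the top.

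The CA2 means were 115 ± 79.1 CPM in TRT12_C and 48.8 ± 14.6 CPM in TRT0_C (SD, n = 5 each), the highest and the lowest of the 6 groups. TRT12_C vs. TRT0_C had a log2 fold change of 1.25 (SE 0.31), with a p of 0.000409 before and 0.384 after adjustment in edgeR's quasi-likelihood test. In edgeR's exact test on the 10 calves of both groups the log2 fold change was 1.24 with an adjusted p of 0.0717, which passed the threshold in a test that called 74 genes in all there. The adjusted p of CA2 ranged from 0.0717 to 0.887 over the alternatives to test, scaling, filter and covariates. Without the calf at 251 CPM, TRT12 replicate 7, the log2 fold change was 0.82. The other groups lay at 85.8 ± 19.5 CPM (TRT6_H), 68.9 ± 24.6 (TRT0_H), 68.2 ± 17.7 (TRT6_C) and 62.0 ± 32.5 (TRT12_H), and no neighbours in the order of the 6 groups differed beyond their pooled SD.

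Against TRT6_C, the log2 fold change of CA2 in TRT12_C was 0.75 (SE 0.31), with a p of 0.0208 before and 0.738 after adjustment in edgeR's quasi-likelihood test, and it was 0.33 without TRT12 replicate 7. In TRT12_C vs. TRT12_H it was 0.86 (SE 0.33), with a p of 0.0142 before and 0.9998 after adjustment, where 1.15% of all genes were higher at an unadjusted p under 0.05. This value was 0.43 without TRT12 replicate 7 and 1.29 without TRT12 replicate 9, the TRT12_H calf at 110.4 CPM. In TRT12 vs. TRT0 it was 0.65 (SE 0.27), with a p of 0.0198 before and 0.460 after adjustment, and 0.35 without TRT12 replicate 7.

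The effect of feeding time on CA2 was compared between parities through the interaction term. TRT12 vs. TRT0 came to -0.18 (SE 0.35) on the log2 scale among H calves and to 1.25 among C calves, and TRT6 vs. TRT0 came to 0.33 (SE 0.35) among H calves and 0.50 (SE 0.32) among C calves. The interaction had a p of 0.00873 before and 0.999 after adjustment in edgeR's quasi-likelihood test, and 2.67% of all genes had an unadjusted p under 0.05. The unadjusted p was 0.0479 without TRT12 replicate 7 and 0.000467 without TRT12 replicate 9. The other 5 genes had an interaction p of 0.111 or more, and whether CA2 differed from them in this was not tested.

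Lane and cell markers were set beside these differences. Lane 2 was the only lane with both TRT0_C and TRT12_C calves, 3 and 2 of them. There CA2 was 98.8 ± 20.2 CPM in TRT12_C and 47.6 ± 10.6 CPM in TRT0_C, SLC12A2 182 ± 4.31 and 139 ± 20.2 CPM, and ATP1B1 255 ± 11.8 and 188 ± 35.3 CPM. With lane as a covariate, TRT12_C vs. TRT0_C came to 1.42 for CA2, 0.39 for SLC12A2 and 0.41 for ATP1B1 on the log2 scale, with adjusted p-values of 0.168, 0.357 and 0.357. Lane 1 held 3 calves each of TRT6_C and TRT12_C, in which SLC12A2 was 132 ± 38.8 and 187 ± 54.7 CPM and CA2 69.4 ± 21.3 and 126 ± 109 CPM. Those ranges overlapped within the lane for both genes. In TRT12 vs. TRT0, the CA2 means were 47.7 and 106 CPM in lane 1, 64.6 and 82.7 CPM in lane 2, and 50.7 and 75.7 CPM in lane 3, for TRT0 and TRT12. Parity was not balanced within these lanes. In lane 1 the TRT0 calves were 2 H, and the TRT12 calves were 1 H and 3 C, the calf at 251 CPM among them. In lane 3 the TRT0 calves were 2 C and the TRT12 calves 2 H, so treatment and parity cannot be told apart there.

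The epithelial marker sum (10 of 15 listed genes had an identifier, and all 10 were detected in every calf) ranged from 3612 to 5005 CPM in TRT0_C and from 3959 to 5450 CPM in TRT12_C, with means of 4254 ± 569 and 4838 ± 705 CPM (SD, n = 5 each). The goblet cell marker sum (4 of 8 listed genes, CLCA1 among them) averaged 1346 ± 248 CPM in TRT0_C and 1794 ± 271 CPM in TRT12_C. The smooth muscle marker sum (10 genes) averaged 10944 ± 2024 and 11278 ± 3061 CPM in the same groups. With the epithelial marker sum as a covariate, an alternative added after the data were seen, TRT12_C vs. TRT0_C came to 0.15 for ATP1B1, 0.30 for SLC12A2 and 1.25 for CA2 on the log2 scale, with adjusted p-values of 0.929, 0.897 and 0.887. The value of ATP1B1 thus moved by more than 1.5 times and that of CA2 hardly at all. The part of goblet cell content in these differences was not tested.

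Across the 27 calves, some of the genes varied together. Of 21 relations computed on TMM-normalised log2 CPM, between the genes and of each gene with the epithelial marker sum, 3 passed an adjusted p of 0.05 with 100000 permutations (two-sided). The epithelial marker sum and ATP1B1 had a Pearson's r of 0.73 and a Spearman's rho of 0.78, each with a permutation p of 2.0e-05 before and 0.00042 after adjustment. The r was 0.67 without the 2 calves farthest from the median of the marker sum. It was 0.54 in lane 1 and 0.76 in lane 2, so it was positive within both larger lanes (n = 11 each).

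SLC26A3 and ATP1B1 had an r of 0.53 (permutation p = 0.00469, adjusted p = 0.0393) and a rho of 0.54 (permutation p = 0.00376, adjusted p = 0.0331), with an r of 0.45 without the 2 most distant calves, 0.45 in lane 1 and 0.52 in lane 2. SLC26A3 and SLC26A2 had an r of 0.52 (permutation p = 0.00561, adjusted p = 0.0393) and a rho of 0.53 (permutation p = 0.00473, adjusted p = 0.0331). Their r was 0.46 without 2 calves, 0.52 in lane 1 and -0.03 in lane 2 (n = 11 each). Whether r differed between the lanes was not tested. SLC26A2 and ATP1B1 had an r of 0.49 (permutation p = 0.00991) that missed the threshold after adjustment (0.0520) and a rho of 0.52 that passed it (adjusted permutation p = 0.0345), with 0.68 in lane 1 and -0.01 in lane 2.

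CFTR had no relation past the threshold. Its r ranged from -0.19 with the epithelial marker sum to 0.32 with SLC26A3, and none of its 6 relations had a permutation p under 0.05. CA2 had an r of 0.23 with the epithelial marker sum (permutation p = 0.254), which was -0.55 in lane 1 and 0.60 in lane 2. The calf with the highest CA2, TRT12 replicate 7, had the lowest SLC26A3 of all 27 calves (52.9 CPM). SLC12A2 had an r of 0.43 with the epithelial marker sum (permutation p = 0.0230, adjusted p = 0.0805) and -0.08 with SLC26A3.

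**Figure D3:**
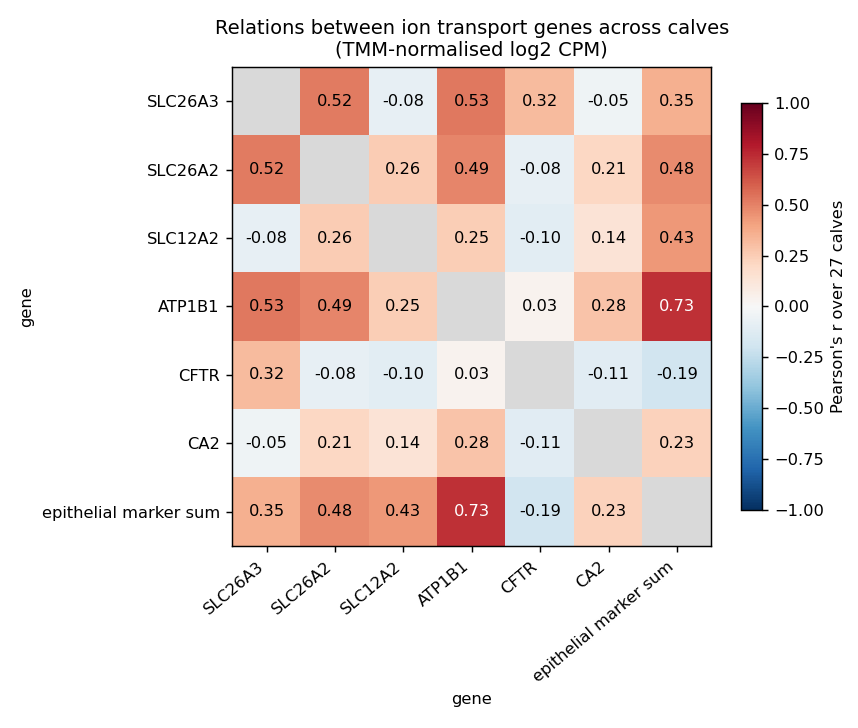
Pearson's r over 27 calves between the 6 genes and the epithelial marker sum (both axes, TMM-normalised log2 CPM), with blue below 0, red above 0 and the value in each cell. The highest value is 0.73, between ATP1B1 and the epithelial marker sum, and the CFTR row stays between -0.19 and 0.32.

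Genes with the profile most like each of the 6 were taken as the tested genes with the highest r over the 27 calves, and these values are descriptions of the choice. For ATP1B1 they were COX4I1 (r = 0.89), a subunit of cytochrome c oxidase, GNB1 (0.87), a G protein beta subunit, and MPP1 (0.86), and COX4I1 had an r of 0.88 in lane 1 and in lane 2. For SLC26A2 the first were CD2AP (0.84) and the copper transporter SLC31A1 (0.80), and for SLC12A2 they were the pyrophosphatase PPA1 (0.82), LGALS2 (0.81) and complement factor CFB (0.79). SLC26A3 was nearest to ENSBTAG00000017233 (0.86), for which no name was listed, and to PCCA (0.80), a subunit of propionyl-CoA carboxylase. The r with PCCA was 0.85 in lane 1 and 0.22 in lane 2. CFTR and CA2 had less close neighbours, with ENSBTAG00000007817 (0.73) and the ubiquitin ligase WWP1 (0.72) for CFTR, and EPN3 (0.67), hexokinase HK1 (0.67) and PRKAR2A (0.67), a regulatory subunit of protein kinase A, for CA2.

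The wider pathway was described through 10 lists with 90 genes, of which 45 had an identifier and 41 were tested, the 6 genes included. In TRT12_C vs. TRT0_C edgeR's quasi-likelihood test called 0 of the other 35. At an unadjusted p under 0.05, 6 of the 35 were higher in TRT12_C and 1 was lower, beside 5.03% and 4.83% of all tested genes. The median log2 fold change was 0.28 over the 6 genes, 0.17 over the other 35 and -0.01 over all tested genes. In TRT12 vs. TRT0, 8 of the 35 were higher and 1 lower at that level, beside 5.19% and 4.19% of all genes. In TRT6 vs. TRT0, 4 were higher and none lower, beside 1.48% of all genes. In TRT12_C vs. TRT6_C, where 2 of the 6 genes had such a p, 0 of the other 35 did, beside 6.71% of all genes. There were also 0 of the 35 in TRT12_C vs. TRT12_H and TRT0_C vs. TRT0_H, beside 2.68% and 2.52% of all genes. The same held for TRT6_C vs. TRT6_H and C vs. H, beside 3.86% and 2.52%. In TRT6_C vs. TRT0_C 1 was higher, beside 1.95% of all genes. In TRT12_H vs. TRT6_H and in TRT12 vs. TRT6 1 was lower, beside 1.8% and 3.14%. In TRT6_H vs. TRT0_H 3 were higher and 0 lower, beside 3.35%. In TRT12_H vs. TRT0_H 2 were higher and 1 lower, beside 3.56%. The shares in these 8 contrasts count both directions.

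Beside ATP1B1, the sodium pump list held ATP1B3, another beta subunit. Its CPM was 237 to 326 in TRT12_C and 156 to 227 in TRT0_C, without overlap, and its log2 fold change was 0.58 (SE 0.20), with an adjusted p of 0.427 in edgeR's quasi-likelihood test. The groups did not overlap for 2.19% of all tested genes in this contrast.

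Of the 4 tested genes for sodium and proton exchange, SLC9A2, an exchanger (0.42, SE 0.19), and SLC9A3R1, a scaffold that binds SLC9A3 and CFTR (0.44, SE 0.21), had an unadjusted p under 0.05 in edgeR's quasi-likelihood test for TRT12_C vs. TRT0_C. SLC9A3, the exchanger that takes up sodium at the apical membrane, had 166 and 157 CPM in TRT12_C and TRT0_C. Of the 4 apical chloride channel genes, CLCA1, a protein secreted by goblet cells, averaged 448 ± 99.4 and 283 ± 64.8 CPM (0.76, SE 0.29), while CFTR was the only one of the 4 with a log2 fold change below 0. CLCA1 also counts among the goblet cell markers above.

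Of the 5 tested bicarbonate genes, CA1 and CA2 were higher and SLC4A7, a sodium bicarbonate cotransporter, lower at an unadjusted p under 0.05 in edgeR's quasi-likelihood test. CA1, the carbonic anhydrase abundant in colon, averaged 133 ± 72.6 CPM in TRT12_C and 53.2 ± 51.6 CPM in TRT0_C (1.34, SE 0.49, adjusted p = 0.440), and its groups overlapped. SLC4A7 averaged 99.6 ± 39.2 and 143 ± 19.3 CPM (-0.46, SE 0.19, adjusted p = 0.468). Among H calves CA1 was at 28.9 ± 8.91 CPM in TRT0_H, 82.3 ± 51.2 in TRT6_H and 76.2 ± 28.7 in TRT12_H (SD, n = 4 each), with log2 fold changes over TRT0_H of 1.51 (SE 0.58) and 1.33 (SE 0.58) and adjusted p-values of 0.99998 in edgeR's quasi-likelihood test. The TRT0_H calves are shared by both comparisons. In the same H calves CA2 had 0.33 and -0.18.

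The lists of secretion receptors, basolateral chloride genes, potassium channels and water channels held 1 gene with such a p in TRT12_C vs. TRT0_C. None of 7 genes of receptors and messengers had an unadjusted p under 0.05 in edgeR's quasi-likelihood test, and GUCY2C, the guanylate cyclase receptor of guanylins and of bacterial heat-stable toxin, was at 167 and 166 CPM in TRT12_C and TRT0_C. The membrane linker EZR was at 235 and 205 CPM. Of 8 genes for chloride loading and exit, SLC12A2 alone had such a p, and the kinase WNK1, which controls it, was at 211 and 216 CPM. The potassium chloride cotransporter SLC12A7 was at 99.4 and 109 CPM. The water channel AQP8 was at 124 and 103 CPM, and AQP1 at 229.8 and 233 CPM. SGK1, a kinase that raises epithelial sodium channels, was at 77.5 and 74.98 CPM, and the potassium channel subunit KCNE3 at 7.11 and 5.56 CPM. SLC26A11, the third tested gene of the list that holds SLC26A3 and SLC26A2, was at 19.8 and 21.0 CPM, with an unadjusted p above 0.05. SCNN1B and SCNN1G, subunits of the sodium channel, averaged 1.12 and 0.632 CPM over the 27 calves and did not pass the filter.

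**Figure D4:**
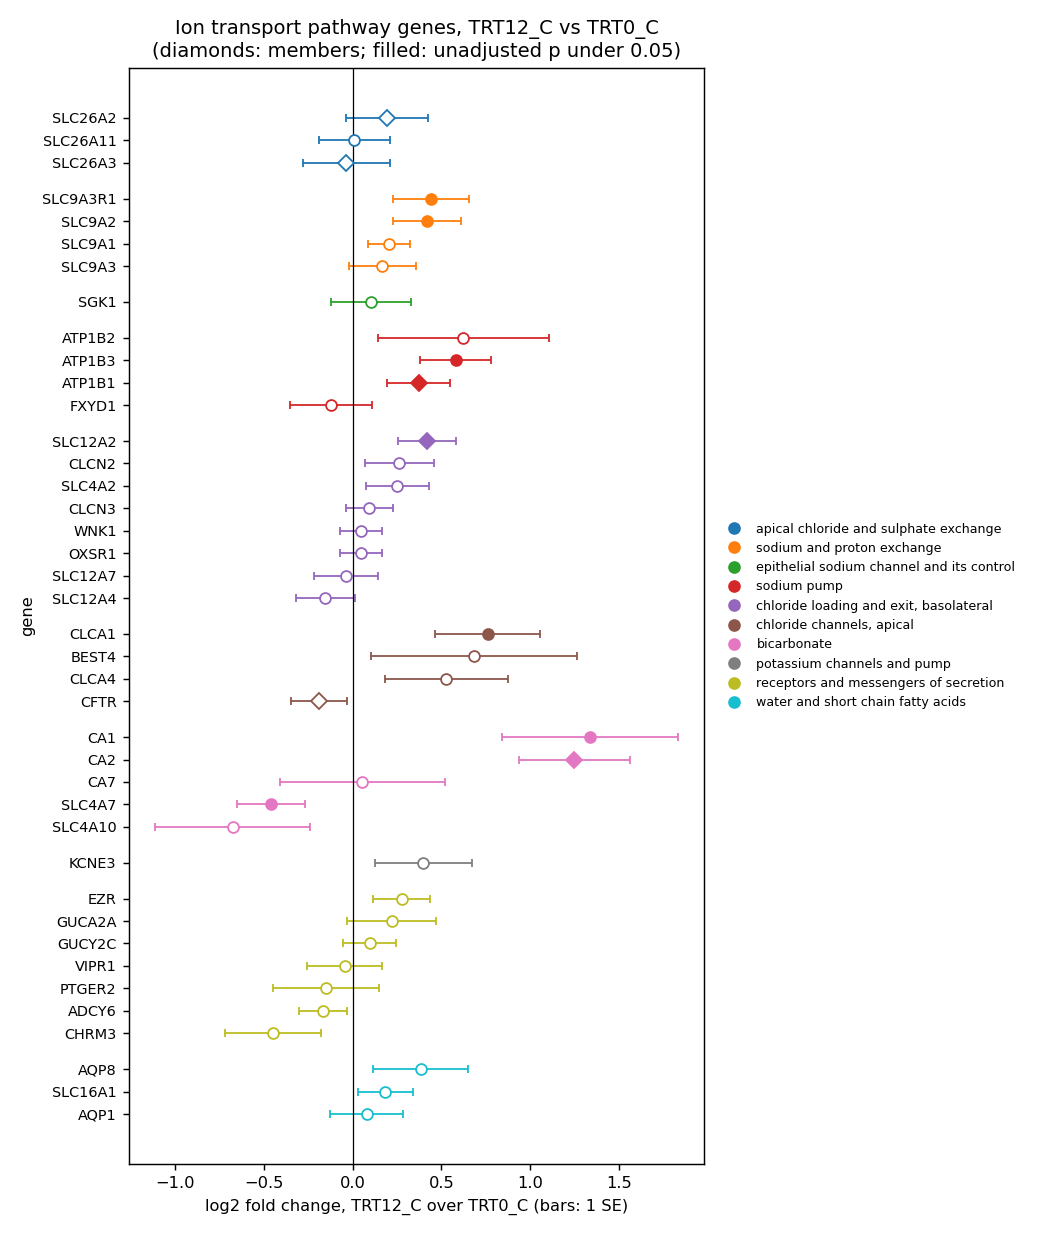
Log2 fold change of TRT12_C over TRT0_C (x axis, bars of 1 SE) for 40 of the 41 tested pathway genes (y axis), grouped and coloured by list, with diamonds for the 6 genes and filled symbols for an unadjusted p under 0.05. Filled symbols above 0 include ATP1B1, ATP1B3, CA1 and CA2, and SLC4A7 is the only filled symbol below 0.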

How the data were processed

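The deposited table held, for each Ensembl gene and calf, the raw count of reads as a whole number. For this table the authors filtered reads, aligned them to UMD 3.1 with TopHat2 (2.1.1), sorted with SAMtools (1.4) and counted with HTSeq. The HTSeq version and strand setting are not given in the sources used here, so genes that overlap on the other strand are uncertain. No normalization had been applied, and all 27 columns were used.

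For CPM, each count was divided by the gene counts of its calf in sum and multiplied by 1000000. The TMM factors given below entered the main fold changes and not these CPM values. A gene was tested if, in every treatment, 5 or more of the 9 calves had 1 CPM or more. The tests used edgeR 4.0.16 (R 4.3.3, TMM factors 0.887 to 1.15, quasi-likelihood test), with 1 mean per group of treatment and parity for 9 contrasts and the interaction, and additive terms for 4 overall contrasts. Adjusted p-values are Benjamini-Hochberg over all tested genes, and a gene was called at 0.10 or less with a fold change of at least 1.2, the thresholds of the study. Fold changes are log2, first group over second. The common biological coefficient of variation was 0.223. Relations used 100000 permutations in Python 3.11.15. Sequencing run and lane came from the run names, and the lanes were renumbered 1 to 3 here.

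Totals of 1163791 to 4202593 counts limit the precision of low genes. The tests weigh group differences against the spread between calves, which includes that between libraries. Alternatives were the likelihood ratio and the exact test of edgeR, DESeq2 1.42.0, no TMM factors, other filters, a lane covariate, a fit of just the compared groups, totals without the 10 highest genes, a threshold of 0.05 on the adjusted p, and each calf left out in turn. The covariate of the epithelial marker sum was added after the data were seen. The edgeR fit was tested on simulated counts. For TRT12_C vs. TRT0_C it recovered 9 of 67 genes (13.4%) that had been given a fold of 1.5. It recovered 36 of 67 (53.7%) at a fold of 2 and 63 of 66 (95.5%) at a fold of 4. Recovery at folds below 1.5 was not tested.

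The genes, pathway lists and marker lists were chosen with earlier results of these data known. Besides the 6 genes, the text names the 2 highest other genes of a pathway list, any called in a contrast, and the 3 nearest profiles. Some genes that this rule or a marker list names are not reported here, though counts over lists include them. SLC9A2, SCNN1B and SCNN1G were named after their values were seen. Names came from gene tables of the study (4003 names used, without chromosome-numbered open reading frames), which cover 45 of the 90 pathway genes, mostly those with many counts.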

Additional observations from a re-analysis of the deposited data

Results flagged for a closer look

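In 4 of 36 combinations of gene and group, 1 calf stood apart from the others by Dixon's criterion, which chance meets in about 1 in 20 groups. SLC26A3 was 135 CPM in TRT0 replicate 4, while the other TRT0_C calves had 86.5 to 97.0 CPM. SLC26A2 was 93.9 CPM in TRT0 replicate 7, below the other TRT0_C calves at 141 to 155 CPM. CFTR was 82.5 CPM in TRT0 replicate 9, below the other TRT0_H calves at 142 to 151 CPM. CA2 was 110.4 CPM in TRT12 replicate 9, above the other TRT12_H calves at 41.1 to 50.5 CPM. These were 4 different calves. The CA2 value of 251 CPM in TRT12 replicate 7 fell just short of the criterion, the remaining TRT12_C calves being themselves spread from 54.0 to 113 CPM.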

How the results depend on the processing

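Under the alternatives to test, scaling, filter, covariate and calves, the number of ion transport genes called stayed at 0 in the 13 contrasts and the interaction, except that edgeR's exact test called 1, CA2 in TRT12_C vs. TRT0_C. No named contrast of these genes changed direction. The calls over all genes depended on the test: the exact test called 74 in TRT12_C vs. TRT0_C and 0 to 7 in the other contrasts it covers, DESeq2 0 to 4, the likelihood ratio test 0 to 2 and the quasi-likelihood test 0, or 1 in the interaction. With a lane covariate 4 genes were called in TRT12_C vs. TRT0_C, none of them one of the 6, and 0 or 1 in the others. Without a filter the calls were 0 to 3, and with the compared groups alone 0 to 2. Without TMM factors the median log2 fold change of all genes lay between -0.08 and 0.09. Without the 10 highest genes in the total, CPM levels rose, for example from 77.0 to 127 CPM for SLC26A3 in TRT0_H. Of the 21 relations, 3 passed an adjusted p of 0.05, against 1 on log2(CPM + 1), 1 with values centred within lanes, 3 with values centred within the 6 groups, and 1 to 5 when each calf was left out in turn. The relation of ATP1B1 with the epithelial marker sum passed throughout (r from 0.57 to 0.77), and those of SLC26A3 with SLC26A2 and with ATP1B1 did not on log2(CPM + 1) (r = 0.36 and 0.32) or centred within lanes (r = 0.46 and 0.49). The cause was not tested. No paired analysis was possible because the labels give the groups no shared replicate numbers and each calf is a different animal. Each group had 4 or 5 calves. Over the 27 calves the coefficients of variation of the 6 genes, 16.1% to 56.1%, exceeded the 5.11% to 8.26% of counting error alone. Each calf gave 1 library, so spread between calves and spread between libraries cannot be told apart.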

Other observations

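Beside the comparisons above, 1 further pathway gene was described over the treatments. CLCA4, a chloride channel accessory protein of surface enterocytes, averaged 485 CPM in TRT0, 635 CPM in TRT6 and 764 CPM in TRT12, with a log2 fold change of 0.64 (SE 0.26) in TRT12 vs. TRT0 and an adjusted p of 0.460 in edgeR's quasi-likelihood test. Among H calves it was at 439 ± 146 CPM in TRT0_H, 787 ± 233 in TRT6_H and 806 ± 217 in TRT12_H (SD, n = 4 each), and among C calves at 522 ± 290, 514 ± 159 and 731 ± 313 CPM (n = 5 each).

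CA1 was called in single alternatives. Its adjusted p was 0.0481 in edgeR's exact test for TRT12_H vs. TRT0_H and 0.0931 in edgeR's quasi-likelihood test for TRT12 vs. TRT0 without TRT0 replicate 4, and it passed in none of the other fits of these contrasts. CLCA1 had an adjusted p of 0.0839 in edgeR's exact test for TRT12_C vs. TRT0_C and passed in none of its other fits.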
